A study of Homo sapiens with 9 samples.

Results

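The aminoacyl tRNA synthetases described here are 35 genes, 19 for cytosolic and 16 for mitochondrial enzymes, out of 57338 genes in the table. The rule is a list of gene names and uses no measured value, although the list was drawn up with earlier results of these data known. All 35 were found under their Ensembl identifiers by current or older symbol (AARS for AARS1, for example). HEK293T, a line derived from human embryonic kidney, was transfected with a pcDNA3.1 plasmid that carried EGFP alone (empty vector), EGFP with human protamine 1 (hPRM1) or EGFP with human protamine 2 (hPRM2). All 3 groups were transfected with TransIT-LT1 and sorted for live cells with a high EGFP signal 3 days later, and each had 3 libraries. Protamines are the small basic proteins that replace histones in sperm. The question was how the transcript levels of the synthetases compared between the groups labelled hPRM1 and hPRM2 and the empty vector, and whether cytosolic and mitochondrial enzymes differed in this. The libraries came from a 3′ end kit and the values are RPKM, the reads of a gene scaled by its length and by the reads of the library. The labels do not say that replicates were separate transfections, so p-values measure the spread between these libraries only.

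A synthetase joins an amino acid to its matching tRNA, which then brings it to the ribosome. Human cells keep a cytosolic set and a mitochondrial set, almost all encoded by separate nuclear genes, with names ending in 1 and 2. GARS1 and KARS1 serve both compartments from the same gene, and QARS1 has no mitochondrial partner in the list because mitochondria make glutaminyl-tRNA by way of glutamyl-tRNA and an amidotransferase. EPRS1 charges both glutamate and proline tRNAs, and FARSA and FARSB are the subunits of the cytosolic phenylalanine enzyme. Several cytosolic enzymes are held in the multi-synthetase complex with the scaffold proteins AIMP1, AIMP2 and EEF1E1. Many cytosolic synthetase genes are known targets of ATF4, the transcription factor of the amino acid response, which binds the C/EBP-ATF response element.

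The promoters of the members were searched for the letters of that element, TGATGNAA, on both strands, to show which genes carry them beside the values that follow. Windows of 250 bases before to 50 bases after the start came from a set of RefSeq promoters (GRCh38.p14). The set used here held 30 of the 35 members and lacked AARS2, LARS1, VARS1, VARS2 and YARS1. The letters were present in 7 of 16 cytosolic genes (43.8%) and in 1 of 14 mitochondrial genes (7.14%), YARS2, beside 4.46% of all 27305 genes with a window. Counted by window, the share was 33.3% for cytosolic and 5.56% for mitochondrial members, beside 3.62% of all 35116 windows. Each match is printed 5′ to 3′ on the strand of the gene, with the matched letters in capitals and 8 bases on either side. In TARS1, GARS1, IARS1, CARS1, MARS1 and AARS1 the letters lie on the strand opposite to the gene, so they read as the reverse complement, and in NARS1 and YARS2 on the strand of the gene.
TARS1 (chr5:33440959-33440982, bases 3 to 10 after the start): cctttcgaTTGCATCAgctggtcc
GARS1 (chr7:30594837-30594860, from base -33): cgcggcgaTTTCATCAtgctccga
IARS1 (chr9:92293695-92293718, from base -13): tcagcgcgTTGCATCAcctccgtg
CARS1 (chr11:3057410-3057433, from base -2): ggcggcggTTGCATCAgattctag
MARS1 (chr12:57488056-57488079, from base -4): ggttccggTTGCATCAgcgaggga
AARS1 (chr16:70289678-70289701, from base -187): tctcgcagTTGCATCAgccaagtt
NARS1 (chr18:57621807-57621830, bases 15 to 22 after the start): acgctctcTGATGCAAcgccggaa
YARS2 (chr12:32756079-32756102, from base -197): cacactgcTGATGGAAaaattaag
A match of letters is a description and does not show that a factor binds there. The windows of TARS1 and NARS1 hold the letters just downstream of the start, those of CARS1 and MARS1 across it, and those of IARS1 and GARS1 within 33 bases upstream of it.

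The libraries of the groups differed before any synthetase was considered. PRM2 stood between 36130 and 71224 RPKM in the hPRM2 libraries and at 0 in the other 6, whereas PRM1 was at 0 in all 9. Reads come from the 3′ end of transcripts and the sources used here do not say which part of the PRM1 transcript the plasmid carries, so this 0 alone does not test the label. The libraries labelled hPRM1 had 0 or 1 of 8 HEK293T markers above 0, with a summed level of at most 0.306 RPKM, against 271 to 330 RPKM in the empty vector and 99.9 to 215 RPKM in hPRM2, where 7 or 8 of them were above 0. They had all 8 red cell markers at a sum of at least 2060240 RPKM, all 7 lymphocyte markers (559 to 772 RPKM), all 4 platelet markers (312 to 544 RPKM) and 7 of 8 neutrophil and monocyte markers (5743 to 6705 RPKM), lists that summed to at most 19.3 RPKM in the other 6 libraries. Of the markers that define these cell types, FCGR3B was at 0 in the libraries labelled hPRM1. Their part in the results was not tested. These libraries also carry library numbers of another run, so that batch and condition cannot be told apart, and every difference from them below is a difference from libraries with this content. Reads on genes, which leave out reads elsewhere in the genome, were estimated at 7930000 to 10790000 for the empty vector, 4210000 to 5860000 for the libraries labelled hPRM1 and 1270000 to 2650000 for hPRM2. In hPRM2 replicate 1, 9652 genes were above 0, against 14353 and 15633 in the other 2. In bulk RNA, fewer cells of a type and less RNA per cell cannot be told apart.

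In the empty vector the cytosolic enzymes were the higher set. Their mean levels ran from 17.9 RPKM for HARS1, the histidine enzyme, to 3952 RPKM for TARS1, the threonine enzyme, and those of the mitochondrial enzymes from 2.96 RPKM for AARS2 to 55.6 RPKM for SARS2. The threonine enzyme led the cytosolic set with 4496, 5826 and 1533 RPKM in the 3 empty vector libraries. The methionine enzyme MARS1 followed with 1654, 1607 and 1647 RPKM. These first ranks overlapped, since the third library of TARS1 lay below all 3 of MARS1. VARS1 for valine had 648, 465 and 782 RPKM, QARS1 for glutamine 324, 261 and 477 RPKM, and GARS1 for glycine 337, 349 and 350.04 RPKM. TARS1 and MARS1 together took up between 50.3% and 73.1% of the cytosolic sum. Among mitochondrial enzymes SARS2 for serine had 69.4, 41.1 and 56.3 RPKM, TARS2 for threonine 42.8, 43.3 and 37.2 RPKM, and IARS2 for isoleucine 27.9, 32.7 and 27.0 RPKM. Of the 34 pairs of neighbours in the order of all 35 levels, 27 had overlapping ranges. The order is therefore coarse: MARS1 stood above VARS1, GARS1 above SARS1, SARS1 above RARS1, YARS1 above CARS1, EPRS1 above SARS2, TARS2 above WARS1 and LARS2 above AARS2 without overlap. Levels between genes also depend on the gene length that was divided by, which is not in the table: MARS1 has 35 annotated transcripts of 183 to 3592 bases and TARS1 has 16 of 171 to 4314 bases. For scale, the elongation factor EEF1A1, which carries charged tRNA to the ribosome, had 1665 ± 97.7 RPKM (SD, n = 3) in the same libraries. This was below the mean of TARS1, but the ranges overlapped, since the third library of TARS1 (1533 RPKM) lay under the lowest EEF1A1 value (1552 RPKM).

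**Figure D1:**
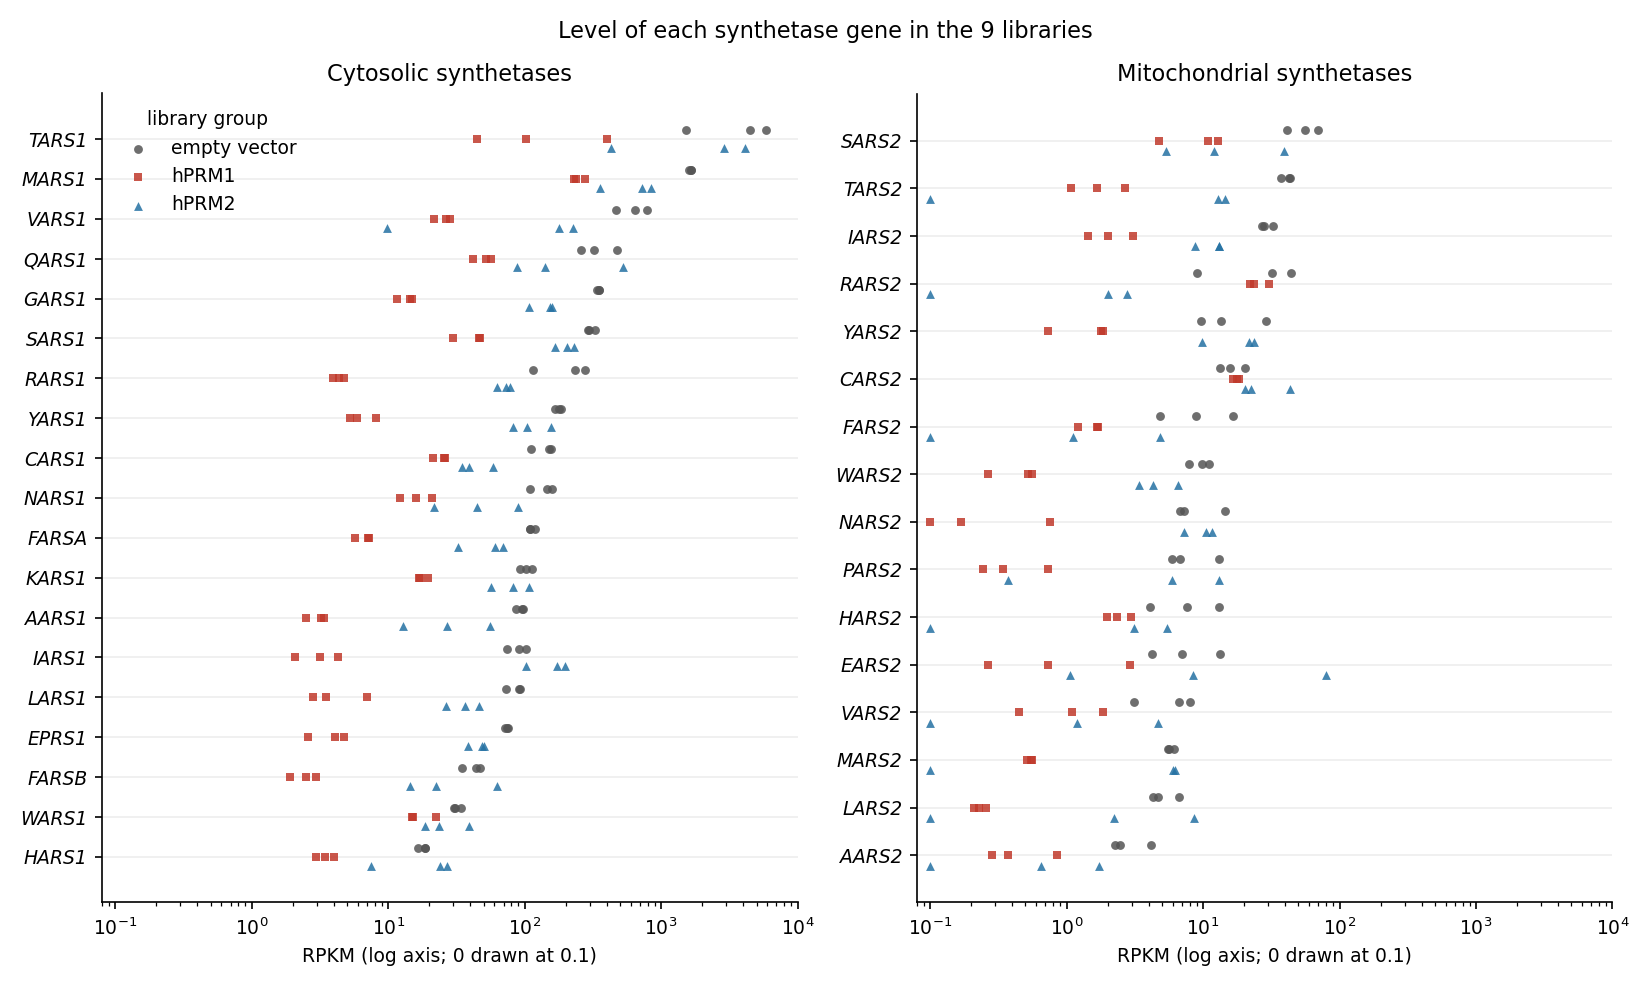
RPKM on a log axis (0 drawn at 0.1) of the 19 cytosolic and 16 mitochondrial synthetase genes, ordered by their mean in the empty vector; each point is 1 library, 3 in each group. The libraries labelled hPRM1 lie below the empty vector for 33 of 35 genes, RARS2 and CARS2 being the others, and 8 mitochondrial genes are at 0 in 1 hPRM2 library.

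The plot of levels in the 9 libraries shows how depth bears on both sets. Each value stands for at most its RPKM times the longest annotated transcript and the estimated reads. This bound was at or above 10 reads for every cytosolic gene in all 9 libraries. Of the 16 mitochondrial genes, 5 to 7 had a bound under 10 reads in each library labelled hPRM1, and 8, 7 and 1 in hPRM2 replicates 1, 2 and 3. The median coefficient of variation over the 35 genes was 18.1% in the empty vector, 23.2% in the libraries labelled hPRM1 and 54.1% in hPRM2. Genes with a single transcript gave the reads more directly. FARSB, the beta subunit for phenylalanine, had 1087, 928 and 1578 reads in the empty vector, against 34.98, 32.99 and 48.03 reads in the libraries labelled hPRM1. PARS2, the mitochondrial proline enzyme, had 113, 106 and 294 reads in the empty vector, and 3.00, 3.00 and 8.01 reads in the libraries labelled hPRM1.

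Against the empty vector, 32 of the 35 synthetase genes were lower in the libraries labelled hPRM1 and none was higher by limma (adjusted p of at most 0.05 and a change of at least 2-fold). Over all 13588 genes tested, 62.5% were lower and 12.9% higher. The median log2 fold change was -3.90 for the cytosolic genes, with 18 of 19 lower, and -2.22 for the mitochondrial genes, with 14 of 16 lower, beside -1.72 for all genes tested. All values of the libraries labelled hPRM1 lay below all empty vector values in 33 of 35 members, which 66.4% of all genes tested did. By unadjusted p under 0.05 the number of members was 33, all of them lower, beside 80.7% of all genes in either direction. The counts moved with the settings, and with a pseudocount of 5 they were 18 of 19 cytosolic and 9 of 16 mitochondrial genes (46.7% of all genes lower), and by the per-gene test of the study's methods 14 of 19 and 4 of 16 (27.4%). Without empty vector replicate 1, 18 of 19 cytosolic and 7 of the 10 mitochondrial genes left to test were lower (53.8%). The genes lost there were AARS2, LARS2, MARS2, NARS2, PARS2 and WARS2, all under 1 RPKM in every library labelled hPRM1. They met the filter of 1 RPKM in 3 of 6 libraries through the empty vector alone, which fixed the direction of their difference. Their lower calls and lack of overlap are therefore no separate result. Log2 fold changes are on the log2(RPKM + 1) scale, which understates the change of genes at a few RPKM, as most mitochondrial synthetases were.

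On this scale the largest falls were those of the arginine, threonine and tyrosine enzymes. RARS1 (chr5:168486445-168519299, GRCh38) had 276, 235 and 115 RPKM in the empty vector, against 4.73, 3.96 and 4.38 RPKM in the libraries labelled hPRM1. Its log2 fold change was -5.20 (SE 0.35, limma adjusted p = 2.13e-05), or 36.8-fold lower. TARS1 (chr5:33440696-33469539) had 44.9, 102 and 401 RPKM in the libraries labelled hPRM1, a wider relative spread than in the empty vector. The groups did not overlap, and the change of -4.79 had the widest error of the set (SE 0.86, limma adjusted p = 0.00187). YARS1 (chr1:32775237-32818153) went from 168, 178 and 186 RPKM to 5.94, 8.20 and 5.25 RPKM, with little spread in either group. It fell by 4.60 on the log2 scale (SE 0.21, limma adjusted p = 5.75e-06).

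Within the multi-synthetase complex all 7 enzymes of the list were lower (EPRS1, IARS1, KARS1, LARS1, MARS1, QARS1 and RARS1), with a median log2 fold change of -4.00. The cytosolic enzymes outside it were lower in 11 of 12, with a median of -3.76. Both stand beside 62.5% of all genes tested and their median of -1.72. KARS1, the lysine enzyme of both compartments, had 114, 102 and 93.2 RPKM in the empty vector, against 16.9, 19.6 and 17.1 RPKM in the libraries labelled hPRM1. This was the smallest fall in the complex, at -2.46 (SE 0.18, limma adjusted p = 2.74e-05). IARS1 went from 74.6, 102 and 90.3 RPKM to 4.29, 3.18 and 2.08 RPKM, a change of -4.45 (SE 0.27, limma adjusted p = 1.42e-05). MARS1 had 239, 228 and 278 RPKM in the libraries labelled hPRM1, a change of -2.72 (SE 0.14, limma adjusted p = 7.88e-06), and QARS1 had 52.0, 42.1 and 57.0 RPKM, a change of -2.75 (SE 0.26, limma adjusted p = 9.15e-05). MARS1 shares 519 exonic bases on the opposite strand with ARHGAP9, a gene of blood cells that stood at 0 in the empty vector but averaged 356 RPKM in the libraries labelled hPRM1. It also shares 355 bases near its 3′ end with DDIT3 on the opposite strand. Whether counting used the strand is not given in the sources used here, and without it such reads cannot be told apart.

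By structural class, the class I enzymes of the cytosol were lower in 9 of 10 (median -4.03) and those of class II in 9 of 9 (median -3.63). Of all genes tested, 62.5% were lower (median -1.72), which holds also for the counts by response element letters below. GARS1, a class II enzyme that charges glycine tRNA in both compartments, had 14.4, 15.1 and 11.6 RPKM in the libraries labelled hPRM1 against 337 to 350.04 RPKM. It fell by 4.57 on the log2 scale (SE 0.17, limma adjusted p = 3.72e-06). VARS1 had 21.6, 26.7 and 28.3 RPKM, a change of -4.55 (SE 0.24, limma adjusted p = 9.06e-06). HARS1 (chr5:140673904-140691862) went from 18.6, 18.5 and 16.5 RPKM to 4.03, 2.96 and 3.42 RPKM, a change of -2.08 (SE 0.20, limma adjusted p = 9.10e-05). HARS1 shares 221 bases near its 3′ end with WDR55 on the opposite strand, which had a mean of 7.67 RPKM in the empty vector, against 9.22 RPKM in the libraries labelled hPRM1. The 7 cytosolic genes with the response element letters were all lower, from -4.79 to -2.46 with a median of -4.45. Of the 9 cytosolic genes without them in their windows 8 were lower, from -5.20 to -0.84 with a median of -2.90, so that the ranges overlapped. LARS1, VARS1 and YARS1 had no window and are in neither set, although VARS1 (-4.55) fell further than the median of the genes with the letters.

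WARS1 (chr14:100333788-100376805), the tryptophan enzyme that interferon is known to induce, was the cytosolic gene that did not pass. It had 34.3, 30.7 and 30.1 RPKM in the empty vector, against 22.3, 14.96 and 15.3 RPKM in the libraries labelled hPRM1. The groups did not overlap, but the log2 fold change of -0.84 (SE 0.22, limma adjusted p = 0.0107) was under 2-fold. Without hPRM1 replicate 1 it was -1.02 and passed. Its mitochondrial counterpart WARS2 was lower by 2.87 on the log2 scale, so the tryptophan pair moved apart.

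Among mitochondrial enzymes TARS2 and IARS2 fell furthest on the log2(RPKM + 1) scale, but this order depends on the pseudocount. With 0.1 in place of 1, NARS2 for asparagine, at 6.74, 7.29 and 14.6 RPKM in the empty vector and 0.752, 0 and 0.169 RPKM in those labelled hPRM1, was lowest (-4.99), followed by TARS2 (-4.51) and WARS2 (-4.18). TARS2 (chr1:150487364-150507609) had 1.67, 2.70 and 1.09 RPKM in the libraries labelled hPRM1 against 37.2 to 43.3 RPKM, a change of -3.94 (SE 0.26, limma adjusted p = 2.16e-05). IARS2 had 2.01, 3.09 and 1.45 RPKM against 27.0 to 32.7 RPKM, a change of -3.28 (SE 0.25, limma adjusted p = 3.78e-05). SARS2 had 4.76, 12.8 and 10.9 RPKM, a change of -2.50 (SE 0.39, limma adjusted p = 0.000907). The remaining mitochondrial genes that fell lay between -2.98 for NARS2 and -1.33 for HARS2. HARS2 (chr5:140691426-140699318), whose start lies 85 bases from that of HARS1 in the opposite direction, had 13.1, 7.66 and 4.06 RPKM in the empty vector, against 2.34, 2.94 and 1.97 RPKM in the libraries labelled hPRM1. Its change of -1.33 (SE 0.39, limma adjusted p = 0.0175) did not pass without empty vector replicate 1 (-0.96) or without hPRM1 replicate 3 (-1.23). HARS2 also shares 152 bases at its 3′ end with ZMAT2 on the same strand, at a mean of 196 RPKM in the empty vector, against 40.6 RPKM in the libraries labelled hPRM1.

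CARS2 and RARS2, the mitochondrial cysteine and arginine enzymes, kept levels within the range of the empty vector. CARS2 (chr13:110641412-110713603) had 13.4, 20.5 and 15.7 RPKM in the empty vector, against 18.4, 17.7 and 16.6 RPKM in the libraries labelled hPRM1, a log2 difference of 0.10 (SE 0.22, limma adjusted p = 0.686, 95% interval -0.42 to 0.62). RARS2 (chr6:87514378-87590003) had 44.0, 32.2 and 9.05 RPKM against 23.8, 30.3 and 22.1 RPKM, a difference of 0.08 (SE 0.55, limma adjusted p = 0.898, 95% interval -1.25 to 1.41). The third empty vector library was the lowest of RARS2, and without it the difference was -0.57. Without hPRM1 replicate 2 it was -0.05. With the median of all genes at -1.72, the differences of CARS2 and RARS2 were 1.82 and 1.80 above it on the log2 scale. As shares of the mitochondrial sum, CARS2 and RARS2 together made up 20.8%, 21.8% and 9.21% in the empty vector, against 67.5%, 62.6% and 63.3% in the libraries labelled hPRM1.

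**Figure D2:**
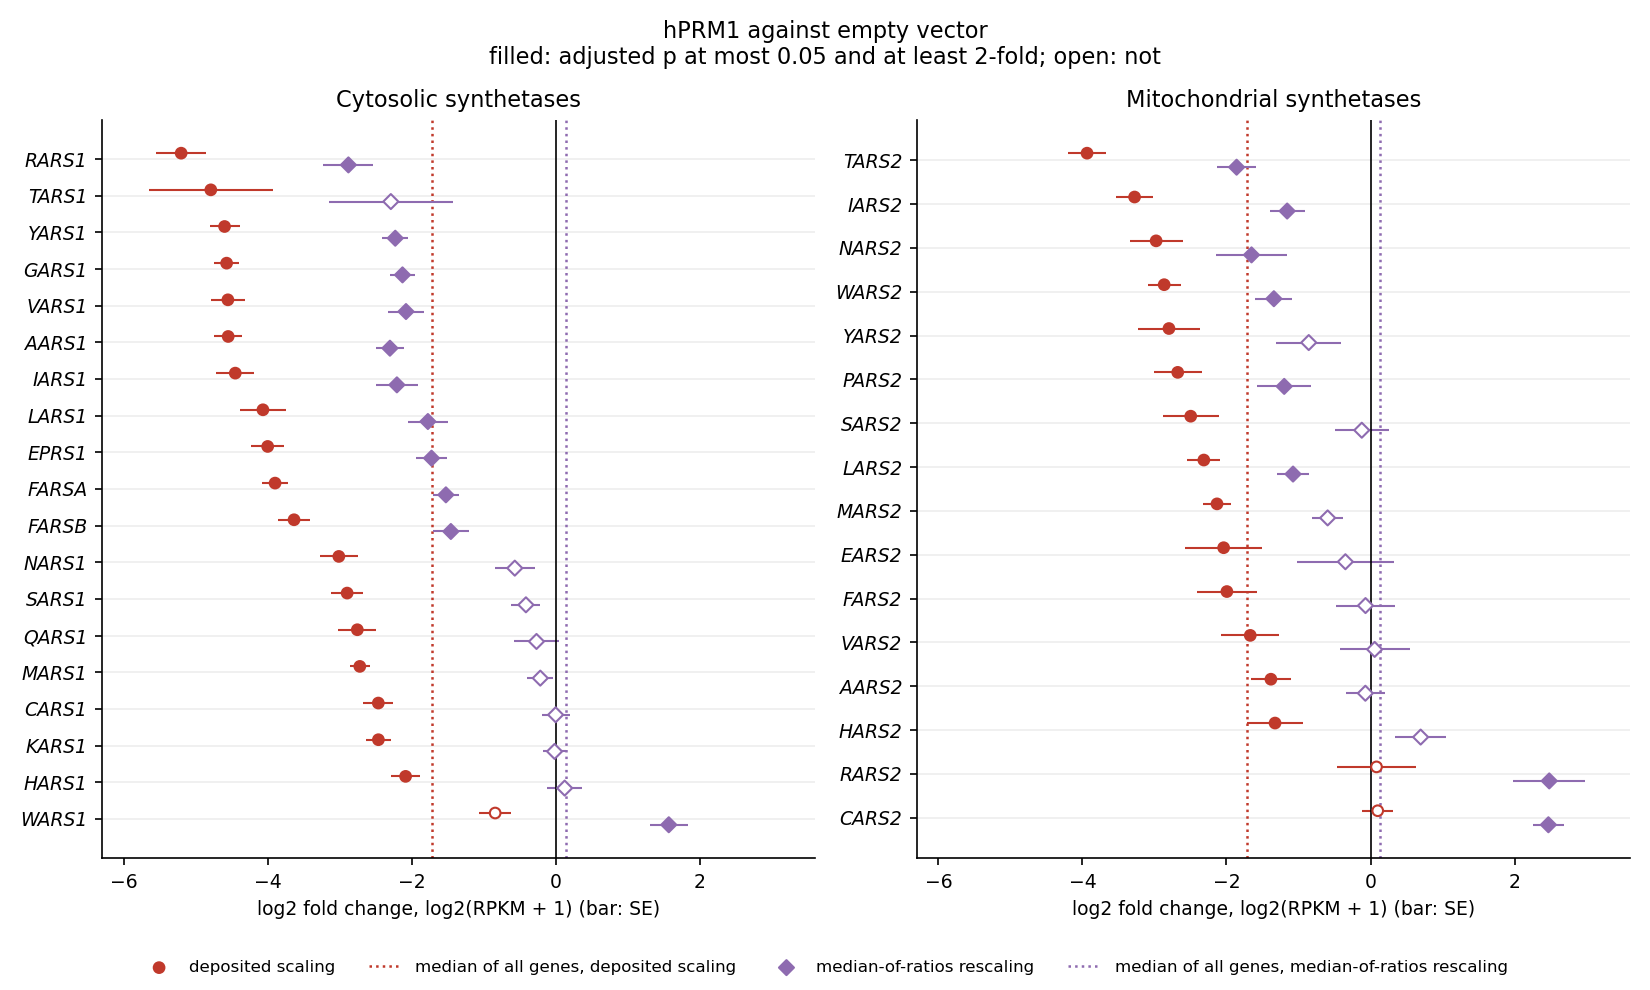
Log2 fold change (bars: SE) of each synthetase gene in the libraries labelled hPRM1 against the empty vector, with the deposited scaling and after median-of-ratios rescaling; filled symbols passed the test, and dotted lines mark the median of all genes tested (-1.72 and 0.14). Of the 35 genes, 32 are lower with the deposited scaling, and 16 lower and 3 higher after rescaling.

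How far the synthetases fell depended on the scaling of the libraries. Median-of-ratios rescaling, which sets the median gene shared by all libraries level, moved the median of all genes from -1.72 to 0.14, and then 25.1% of all genes were lower and 32.6% higher. With it, 16 members were lower (10 cytosolic and 6 mitochondrial) and 3 were higher, namely WARS1 (1.57), CARS2 (2.47) and RARS2 (2.48). The cytosolic median was then -1.52 and the mitochondrial median -0.47, both still below that of all genes. Quantile normalization left 21 members lower and 2 higher, beside 34.7% and 25.6% of all genes. The plot of fold changes under both scalings shows that RARS1 stayed lowest (-2.88), that TARS1 no longer passed (-2.29, limma adjusted p = 0.0518) and that CARS1, KARS1 and MARS1 stood near 0 (0.00, -0.02 and -0.21). The pseudocount moved the mitochondrial median more than the cytosolic one: it was -3.06 with 0.1 and -1.08 with 5, against -4.07 and -3.18 for the cytosolic genes.

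Summed over members, the cytosolic genes gave 33.1, 42.1 and 23.5 times the RPKM of the mitochondrial genes in the 3 empty vector libraries. The ratio was 8.32, 7.58 and 15.2 in the libraries labelled hPRM1, without overlap, and 15.1, 56.9 and 27.0 in hPRM2, with overlap. The spread within the empty vector was smaller without the highest genes. Without TARS1 and SARS2, the highest gene of each set in the empty vector, the ratio was 22.4, 21.7 and 22.5 there. It was 8.22, 7.50 and 10.5 in the libraries labelled hPRM1 and 13.4, 20.3 and 15.03 in hPRM2, so that neither group then overlapped the empty vector. This ratio still holds CARS2 and RARS2, which made up 67.5%, 62.6% and 63.3% of the mitochondrial sum in the libraries labelled hPRM1. A ratio without CARS2 and RARS2 was not computed. The ratio of the medians overlapped the empty vector in both other groups, with 12.7, 19.6 and 8.42 in the empty vector, against 8.55, 11.8 and 10.6 in the libraries labelled hPRM1 and 35.99, 15.1 and 13.0 in hPRM2. The lower ratio of sums therefore did not appear when the middle gene of each set was used.

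**Figure D3:**
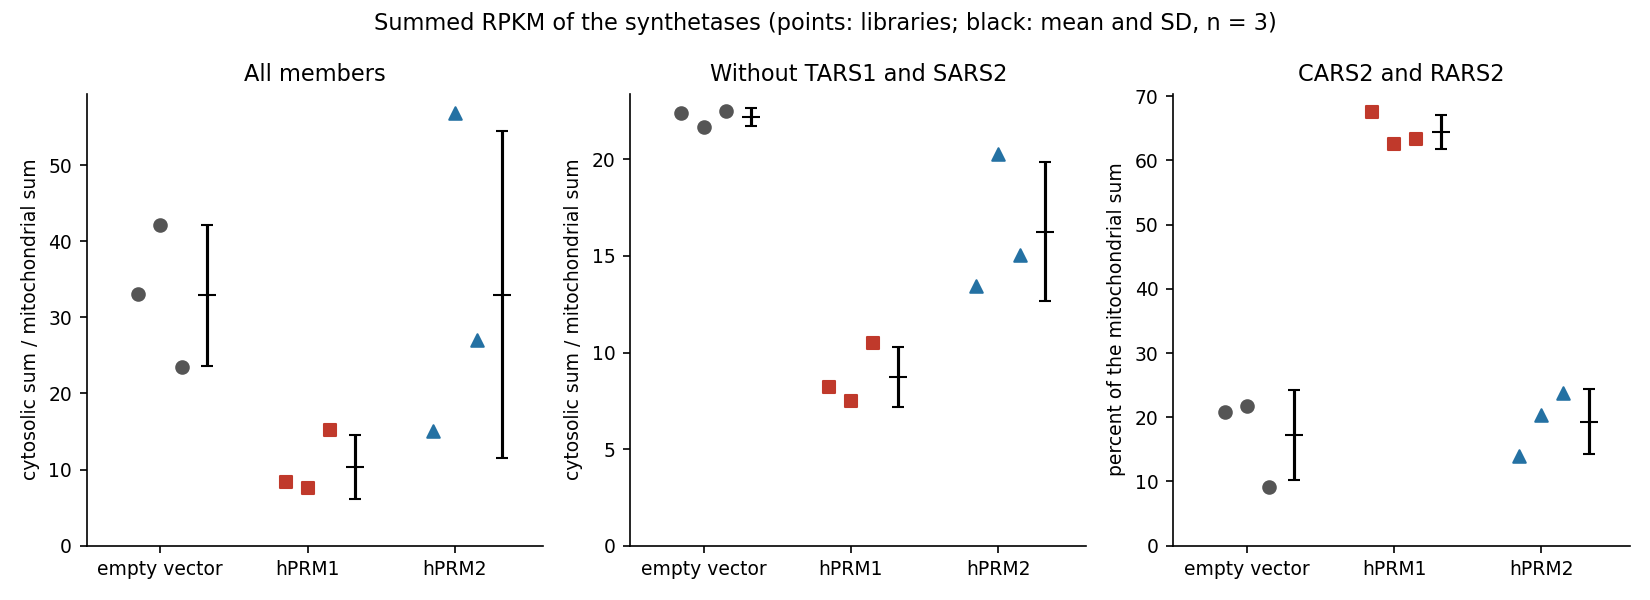
Ratio of summed RPKM of cytosolic to mitochondrial synthetases with all members and without TARS1 and SARS2, and percent of the mitochondrial sum from CARS2 and RARS2, in each library (points), with mean and SD (black, n = 3). The libraries labelled hPRM1 lie below the empty vector in both ratios and near 64.5% in the share of CARS2 and RARS2, against 17.3% in the empty vector.

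Setting the cytosolic against the mitochondrial enzyme for the same amino acid gave 17 pairs, with EPRS1 and FARS2 used in 2 pairs each. The log2 ratio of RPKM + 1 was lower in all libraries labelled hPRM1 than in all empty vector libraries in 12 pairs, higher in 1 and overlapping in 4, with a median difference of -1.64. Adding 1 lowers the ratio most where the mitochondrial gene is under 1 RPKM, so these counts hold for this scale only. MARS2 had 0.554, 0.515 and 0.553 RPKM in the libraries labelled hPRM1, against 5.56, 6.08 and 5.63 RPKM in the empty vector. MARS1 over MARS2 counts as lower here, but is higher without the added 1. AARS2, LARS2, NARS2, PARS2 and WARS2 were also under 1 RPKM in those libraries. Without the added 1, LARS1 over LARS2, YARS1 over YARS2 and both EPRS1 pairs overlap the empty vector. NARS1 over NARS2 is then higher in the libraries labelled hPRM1 where NARS2 was above 0. No other pseudocount was tried for the pairs. The arginine pair changed most. RARS1 over RARS2 was 2.62, 2.83 and 3.53 in the empty vector, against -2.11, -2.66 and -2.10 in the libraries labelled hPRM1, so the mitochondrial gene was the higher of the pair only there. The alanine pair (AARS1 over AARS2) went from 4.80, 4.08 and 4.91 to 1.72, 1.24 and 1.35. The valine pair differed by -2.88 and the cysteine pair by -2.56 between group means. WARS1 over WARS2 went the other way, from 1.70, 1.83 and 1.37 to 4.20, 3.36 and 3.42. On this scale the histidine, asparagine, serine and threonine pairs overlapped.

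**Figure D4:**
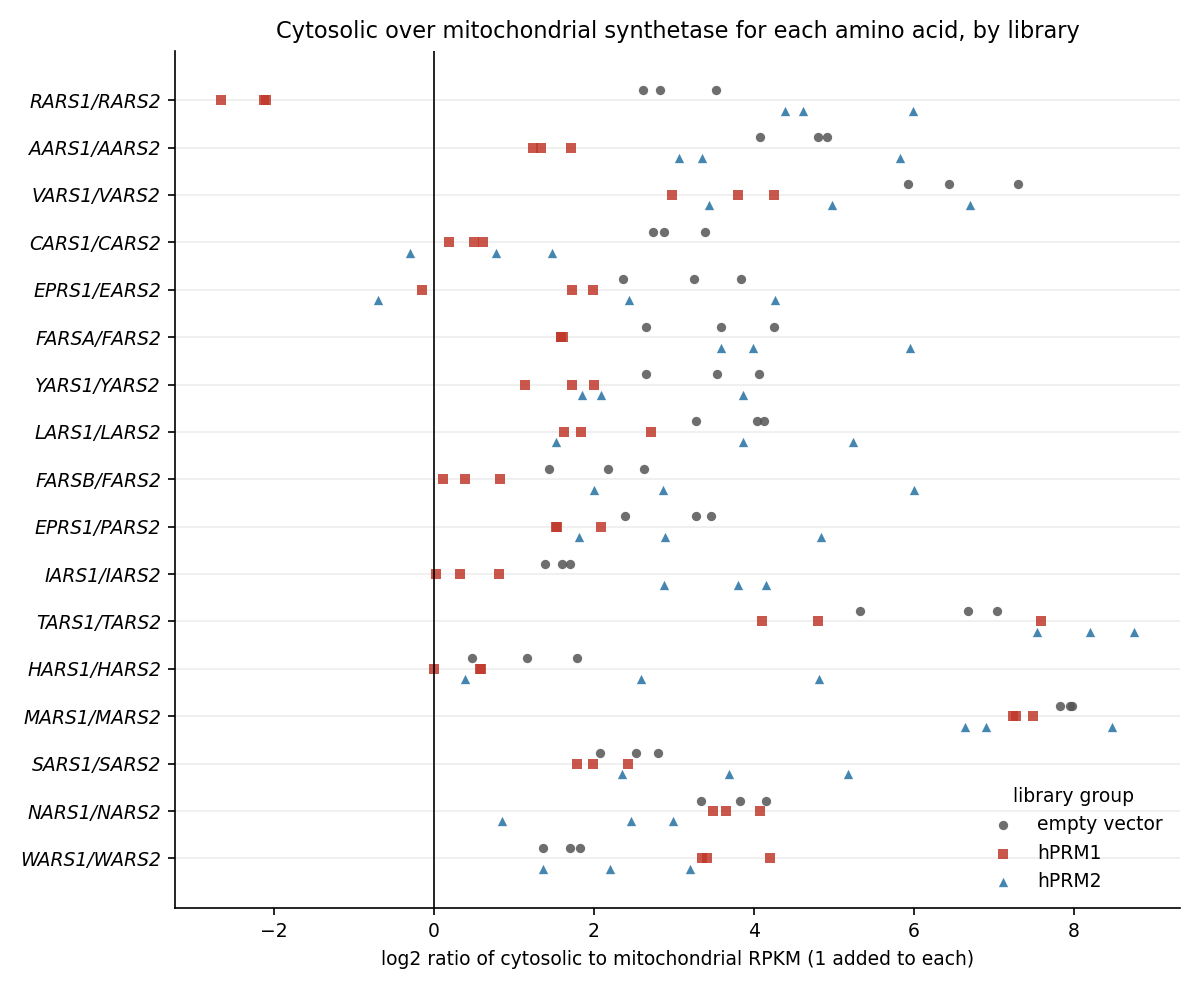
Log2 ratio of cytosolic to mitochondrial RPKM (1 added to each) for the 17 pairs of the same amino acid, ordered by the difference of the libraries labelled hPRM1 from the empty vector; each point is 1 library. RARS1/RARS2 lies below 0 in the 3 libraries labelled hPRM1 and above 4.39 in the 3 hPRM2 libraries, and WARS1/WARS2 is the pair that is higher in the libraries labelled hPRM1. RARS2 and TARS2 are at 0 in hPRM2 replicate 1, where the added 1 sets the ratio.

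The plot of pair ratios by library also shows hPRM2, where 2 pairs were lower than in the empty vector, 3 were higher and 12 overlapped, with a median difference of 0.14. RARS1 over RARS2 was 5.99, 4.62 and 4.40 in hPRM2, above the 2.62 to 3.53 of the empty vector. IARS1 over IARS2 was 2.88, 4.16 and 3.81, against 1.39, 1.61 and 1.70 in the empty vector. TARS1 over TARS2 was 8.75, 8.20 and 7.54, against 6.68, 7.04 and 5.33. The cysteine and asparagine pairs were the lower ones, by 2.34 and 1.67 between group means. RARS2 and TARS2 were at 0 in hPRM2 replicate 1, so the added 1 sets the size of both ratios there. In replicates 2 and 3 the RARS2 values stand for at most 4.63 and 8.12 reads. With these limits, the arginine pair lay on opposite sides of the empty vector in the libraries labelled hPRM1 and in hPRM2. The isoleucine pair did as well. The libraries labelled hPRM1 and the hPRM2 libraries are set here against the same empty vector libraries.

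In hPRM2 against the empty vector, 0 of 35 members passed limma's test in either direction, where 1.37% of 13126 genes were lower and 1.36% higher. At an unadjusted p under 0.05 there were 14 members, beside 25.5% of all genes, and the per-gene test of the study's methods also called 0. The median log2 fold change was -0.99 for the cytosolic and -1.10 for the mitochondrial genes, beside -0.72 for all genes tested. In 18 of 35 members all 3 hPRM2 libraries lay below all 3 empty vector libraries, beside 29.9% of all genes tested, and in 0 members above them. The replicates of hPRM2 differed by more than those of the other groups, so that differences of this size did not stand out from the spread in this design.

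The lowest log2 fold changes were those of RARS2, VARS1 and TARS2. RARS2 had 0, 2.004 and 2.78 RPKM in hPRM2 against 44.0, 32.2 and 9.05 RPKM, without overlap, and a change of -3.46 (SE 0.83, limma adjusted p = 0.0726). These hPRM2 values stand for at most 4.63 and 8.12 reads in replicates 2 and 3. VARS1 had 9.84, 227 and 179.6 RPKM in hPRM2, where replicate 1 was far below the others, and a difference of -3.02 (SE 1.11, limma adjusted p = 0.156). TARS2 had 0, 13.0 and 14.5 RPKM, again lowest in replicate 1, and a difference of -2.80 (SE 1.06, limma adjusted p = 0.164). The enzymes that serve both compartments differed from each other. GARS1 had 153, 108 and 159.7 RPKM in hPRM2, all below its empty vector values (-1.31, SE 0.29, limma adjusted p = 0.0604). Its change was larger than the median change of the cytosolic genes. KARS1 had 57.1, 107 and 82.1 RPKM, which overlapped its empty vector values (-0.36, SE 0.35, limma adjusted p = 0.522).

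The highest log2 fold changes were those of IARS1, CARS2 and EARS2. IARS1 (chr9:92210207-92293756) had 102, 174 and 197 RPKM in hPRM2 against 74.6, 102 and 90.3 RPKM, of which replicate 1 lay just under the highest empty vector value, and a difference of 0.77 (SE 0.37, limma adjusted p = 0.234). CARS2 had 22.4, 20.3 and 43.0 RPKM, and a difference of 0.69 (SE 0.48, limma adjusted p = 0.380). EARS2, the mitochondrial glutamate enzyme, had 79.9, 1.06 and 8.46 RPKM against 4.25, 7.02 and 13.2 RPKM in the empty vector, and a difference of 0.47 (SE 1.29, limma adjusted p = 0.831) that rests on replicate 1, without which it was -0.93. Its levels in the libraries labelled hPRM1 were 2.94, 0.728 and 0.266 RPKM. WARS1 had 39.4, 23.4 and 18.5 RPKM (-0.28, SE 0.43, limma adjusted p = 0.687), and HARS1 had 27.2, 23.8 and 7.48 RPKM (-0.06, SE 0.58, limma adjusted p = 0.955). HARS2 had 0, 3.13 and 5.48 RPKM (-1.51, SE 0.86, limma adjusted p = 0.303).

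Other members with high levels in the empty vector lay lower in hPRM2 without passing. MARS1 had 354, 722 and 847 RPKM in hPRM2, all below its empty vector values. RARS1 had 62.4, 72.7 and 78.4 RPKM, also without overlap. QARS1 had 522, 141 and 87.7 RPKM, where replicate 1 lay above the empty vector and the other libraries below it. Of the mitochondrial enzymes, IARS2 had 13.0, 8.78 and 13.1 RPKM, all below the empty vector, and SARS2 had 12.0, 5.35 and 39.3 RPKM, likewise without overlap.

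**Figure D5:**
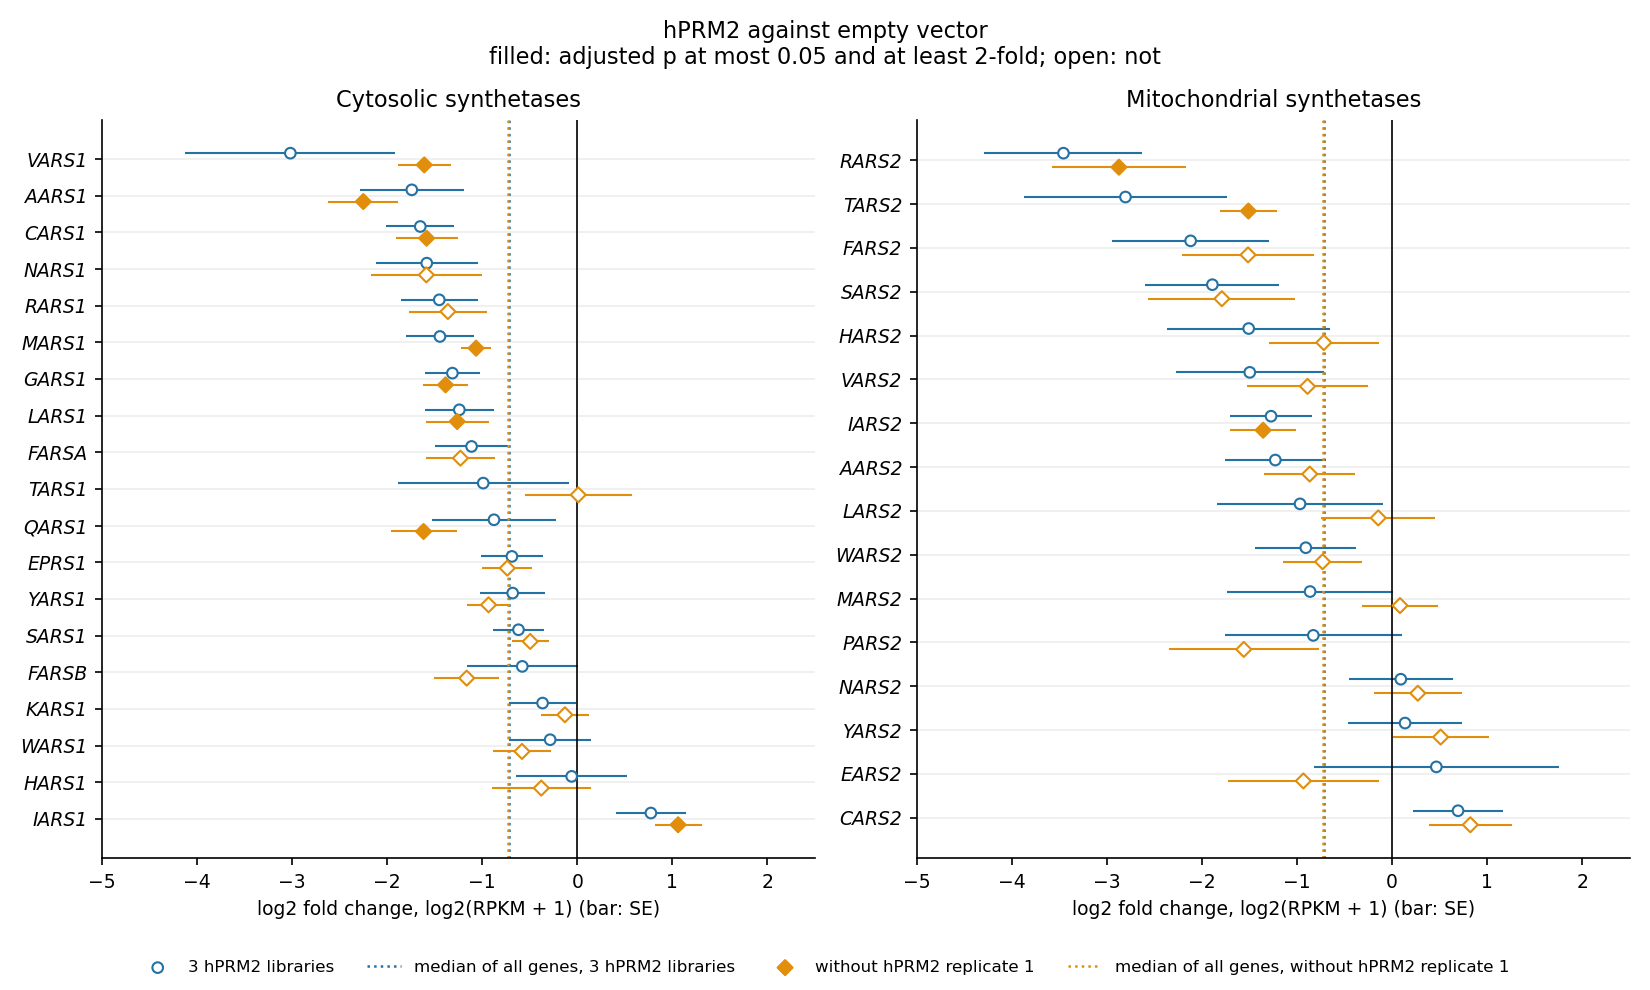
Log2 fold change (bars: SE) of each synthetase gene in hPRM2 against the empty vector, with the 3 hPRM2 libraries and without hPRM2 replicate 1; filled symbols passed the test, and dotted lines mark the median of all genes (-0.72 and -0.73). No gene passed with 3 libraries, and 10 were lower and 1 higher without replicate 1.

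Leaving out hPRM2 replicate 1 changed these calls. It had 8 of 16 mitochondrial members at 0 (AARS2, FARS2, HARS2, LARS2, MARS2, RARS2, TARS2 and VARS2), against 0 in the other hPRM2 libraries. With 0 reads seen, up to 3 are possible, or 1.13 RPM at the depth of this library. Without it, 10 members were lower and 1 higher, beside 12.3% and 5.30% of all genes, as the plot with and without that replicate shows. The lower ones were AARS1, CARS1, GARS1, LARS1, MARS1, QARS1 and VARS1 of the cytosol and IARS2, RARS2 and TARS2 of the mitochondrion, from -2.87 for RARS2 (limma adjusted p = 0.0442) to -1.06 for MARS1 (limma adjusted p = 0.0188). The higher one was IARS1, by 1.06 (SE 0.25, limma adjusted p = 0.0406). VARS1 then stood at -1.61 and TARS2 at -1.51, against -3.02 and -2.80 with the replicate, and TARS1 at 0.01 against -0.99. A fit of all 9 libraries, which shares their spread, called 7 members lower with all replicates kept, beside 12.3% of all genes.

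Between the libraries labelled hPRM1 and those of hPRM2, 31 members could be tested, the other 4 being mitochondrial genes under the filter on low values (AARS2, LARS2, MARS2 and PARS2). Of these, 18 were lower and 1 higher in the libraries labelled hPRM1, where 37.0% of 11756 genes were lower and 16.0% higher. The cytosolic genes were lower in 14 of 19 (median -2.78) and the mitochondrial genes in 4 of 12 (median -0.87), beside -0.97 for all genes tested. With no filter, 4 of 16 mitochondrial genes were lower and their median was -1.20, beside -0.48 for all genes. Over both sets, the members called lower were 11 after quantile normalization and 0 by the per-gene test, beside 22.0% and 0.876% of all genes. IARS1 was lowest at -5.22 (SE 0.41, limma adjusted p = 0.000226), followed by YARS1 at -3.92 (SE 0.37, limma adjusted p = 0.000424) and TARS1 at -3.80 (SE 1.11, limma adjusted p = 0.0285). YARS1 had 157, 81.9 and 104 RPKM in hPRM2, and TARS1 had 431, 4112 and 2893 RPKM. RARS2 was the member that was higher in the libraries labelled hPRM1, by 3.54 (SE 0.59, limma adjusted p = 0.00324). HARS2 and FARS2 followed with differences of 0.18 (SE 0.74, limma adjusted p = 0.854) and 0.13 (SE 0.65, limma adjusted p = 0.889). FARS2, the mitochondrial phenylalanine enzyme, had 8.93, 4.80 and 16.6 RPKM in the empty vector, against 1.69, 1.68 and 1.22 RPKM in the libraries labelled hPRM1 and 0, 1.11 and 4.84 RPKM in hPRM2. After median-of-ratios rescaling 6 members were lower and 3 higher (RARS2 by 5.11, WARS1 by 1.32 and CARS2 by 1.28), beside 18.5% and 30.8% of all genes.

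The partners of the synthetases were also counted, from a list of scaffold proteins, mitochondrial amidotransferase subunits, elongation factors and related enzymes. In the libraries labelled hPRM1, 14 of 16 tested partners were lower and 0 higher by limma (median log2 fold change -2.77), beside 62.5% and 12.9% of all genes. At an unadjusted p under 0.05 there were 16 partners, beside 80.7% of all genes. The scaffold proteins EEF1E1 and AIMP2 and the elongation factor subunit EEF1B2 fell most. EEF1E1 went from 96.9, 90.5 and 79.7 RPKM to 1.24, 0.862 and 0.925 RPKM, a change of -5.49 (SE 0.20, limma adjusted p = 3.49e-06). EEF1B2 went from 1764, 1873 and 2367 RPKM to 47.7, 45.3 and 59.6 RPKM (-5.27), and AIMP2 from 71.3, 84.1 and 72.7 RPKM to 4.37, 6.82 and 5.47 RPKM (-3.57). The partners that did not pass were QRSL1 of the amidotransferase (-0.99) and the elongation factor subunit EEF1D (-0.96). Rescaling by median of ratios left 3 partners lower and turned QRSL1 (1.19) and EEF1D (1.54) to higher, with a list median of -0.33, beside 25.1% of all genes lower and 32.6% higher. In hPRM2, 0 of 17 tested partners passed limma's test, 1 was at an unadjusted p under 0.05 (25.5% of all genes were), and the median was -0.27.

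Genes of tRNA maturation were lower in 15 of 15 tested in the libraries labelled hPRM1, with a median of -2.22, beside 62.5% of all genes and their median of -1.72. The tRNA ligase RTCB went from 84.1, 93.2 and 107 RPKM to 6.88, 5.88 and 6.46 RPKM, a change of -3.69 (SE 0.19, limma adjusted p = 8.17e-06). TRMU, which modifies mitochondrial tRNAs, stood at 8.64, 15.6 and 13.2 RPKM in the empty vector and at 0, 0.109 and 0 RPKM in the libraries labelled hPRM1. It met the filter of 1 RPKM through the empty vector alone, which fixed the direction of its difference. Without empty vector replicate 1, 11 of the 11 genes of the list left to test were lower, beside 53.8% of all genes. The splicing endonuclease subunit TSEN15 fell by 3.38 on the log2 scale. After median-of-ratios rescaling 3 were lower and 1 higher, beside 25.1% and 32.6% of all genes. In hPRM2, 0 of 15 passed limma's test, 2 were at an unadjusted p under 0.05 (25.5% of all genes were), and the median was -0.34.

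The list of the ATF4 amino acid response had 24 of 27 tested genes lower and 2 higher in the libraries labelled hPRM1, with a median of -3.76, or -3.72 without the 4 genes listed at 0 in all 3 of those libraries (ALDH1L2, CHAC1, PYCR1 and STC2). Of all genes 62.5% were lower and 12.9% higher. PSAT1, an enzyme of serine synthesis, had 213, 196 and 351 RPKM in the empty vector, against 0.352, 0.490 and 0.987 RPKM in the libraries labelled hPRM1. ATF3, a transcription factor induced by stress, had 207, 170.3 and 98.3 RPKM against 0.287, 0 and 0.344 RPKM. PYCR1 of proline synthesis had 130, 95.0 and 127 RPKM and was listed at 0. PSAT1, ATF3 and PYCR1 were under 1 RPKM in every library labelled hPRM1. They met the filter of 1 RPKM through the empty vector alone, which fixed the direction of their difference. Without empty vector replicate 1, 17 genes of the list were left to test and 15 were lower, beside 53.8% of all genes. ATF4 itself fell by 3.63 (SE 0.20, limma adjusted p = 1.14e-05), and the genes that rose were CEBPB (1.72) and ATF5 (1.09), all 3 named after their values were seen. After rescaling, 21 were lower and 2 higher, with a median of -1.63, beside 25.1% and 32.6% of all genes. In hPRM2, 1 of 28 tested genes was lower, SESN2, an inhibitor of growth signalling, with 19.9, 21.1 and 20.6 RPKM against 83.9, 117 and 118 RPKM (-2.30, SE 0.34, limma adjusted p = 0.0297), beside 1.37% of all genes. No gene of the list was called after median-of-ratios rescaling (SESN2 -1.72, limma adjusted p = 0.0576), with the replicate block, with no filter, by the per-gene test, or without any replicate other than hPRM2 replicate 1. At an unadjusted p under 0.05 there were 14 genes of the list, beside 25.5% of all genes. The median there was -1.28, and ATF4 had 300.2, 317 and 259 RPKM against 330, 342 and 385 RPKM (-0.27, SE 0.25, limma adjusted p = 0.507). Without hPRM2 replicate 1, 12 genes of this list were lower and 1 higher (ATF5), beside 12.3% and 5.30% of all genes. The 7 cytosolic synthetases with the response element letters had a median log2 difference of -1.44 in hPRM2 with all replicates, against -0.62 for the 9 without them, with overlapping ranges. LARS1, VARS1 and YARS1, which had no window, are in neither set.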

How the data were processed

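The authors processed the reads with nf-core/rnaseq (FastQC, Cutadapt, STAR and Salmon, versions not given in the sources used here; hg38 per the submitters' processing notes), removed mitochondrial genes and deposited RPKM values, the count of each gene scaled by the reads of its library and by the length of the gene. Counts were not analysed here, and 0 columns of sample values were left unused. All further steps were computed from these RPKM values. Within a comparison, genes that reached 1 RPKM in 3 or more of its 6 libraries were tested on log2(RPKM + 1) with limma 3.58.1 (lmFit, eBayes with trend and robust) in R 4.3.3, a separate fit for each comparison, unblocked. P-values were adjusted over all genes tested (Benjamini-Hochberg), and a call needed an adjusted p of at most 0.05 and a change of at least 2-fold. The scripts were tested on simulated data.

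The reads behind each library were inferred from the steps between low RPKM values, over single-transcript genes of GENCODE 29, with 250 bases subtracted from their lengths. Of the values under 5 reads in these genes, 91.3% to 96.6% per library lay within 0.1 of a whole read. The length used for genes with several transcripts is not in the table, so reads were not recovered for most genes and no test of counts was run. Estimates and the limit of 3 reads cover counting error only. Positions are from GENCODE 29 (GRCh38), promoters from RefSeq (GRCh38.p14). Sums and ratios used Python 3.11.15 (numpy 2.4.6, pandas 2.3.3, SciPy 1.17.1), and figures matplotlib 3.10.9.

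Members, gene lists and cell type markers were chosen with earlier results of these data known. Values of every library are given for the 5 cytosolic and 3 mitochondrial members highest in the empty vector, the 3 largest rises and falls of each comparison, WARS1, HARS1, HARS2, GARS1 and KARS1, and up to 3 genes a list by size of change in the libraries labelled hPRM1. Other genes were named after their values were seen. As alternatives the pseudocount was set to 0.1 or 5 and the minimum to none or 10 RPKM, with quantile normalization, rescaling by median of ratios, blocking on replicate number, 1 fit over the 9 libraries, dropping each replicate in turn, the per-gene test of the methods and no fold threshold.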

Additional observations from a re-analysis of the deposited data

How the results depend on the processing

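For the libraries labelled hPRM1 against the empty vector, the 32 members called lower became 21 with a minimum of 10 (which left 24 to test), 16 after median-of-ratios rescaling, 21 after quantile normalization and 18 by the per-gene test of the methods, and 25 to 33 when each replicate was left out. Members called higher numbered 3 after rescaling and 2 after quantile normalization. For hPRM2 the 0 members called lower became 1 after quantile normalization, 7 in the fit of all 9 libraries and 0 to 10 when a replicate was left out, and 0 to 1 were then higher. Between the libraries labelled hPRM1 and hPRM2 the 18 called lower became 6, 11 and 0 after rescaling, after quantile normalization and by the per-gene test, and 13 to 19 without a replicate, and the 1 called higher became 3 after rescaling and 0 by the per-gene test. The mean ratio of cytosolic to mitochondrial sums in the empty vector was 32.9, against 13.5 as a ratio of medians and 22.2 without the highest member. After median-of-ratios rescaling, the difference of the libraries labelled hPRM1 from the empty vector turned for CARS1 (7.12e-05), HARS1 (0.13), HARS2 (0.70), VARS2 (0.057) and WARS1 (1.57), and after quantile normalization for HARS2 (0.23) and WARS1 (0.85). That from hPRM2 turned for CARS2 (1.28), WARS1 (1.32) and MARS1 (0.66, and 0.97 after quantile normalization), and changed sign without a call for 7 further members after rescaling and 6 after quantile normalization. The cause was not tested, other than that fewer genes or libraries enter where a minimum or a left-out replicate removes them. Over all genes tested, 8491 were lower and 1750 higher for hPRM1, against 3412 and 4434 after rescaling, and for hPRM2 180 and 179, against 1577 and 680 without its replicate 1. Over all members and alternatives, 469 of 531 results kept direction and side of the threshold for hPRM1 against the empty vector, 515 of 550 for hPRM2 and 387 of 480 between those labelled hPRM1 and hPRM2. Replicate numbers did not pair the libraries: same-numbered libraries had correlations of their deviations from -0.0783 to 0.0795. With the replicate number as a block, the members called were 32 lower for hPRM1, 0 for hPRM2, and 19 lower and 1 higher between those labelled hPRM1 and hPRM2, while over all genes in hPRM2 the block left 8 lower and 49 higher. Depth limits the mitochondrial members most, since 5 to 8 of 16 had a bound under 10 reads in the libraries labelled hPRM1 or hPRM2 other than hPRM2 replicate 3, which had 1.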
